A study of Mus musculus with 6 samples.

Results

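The collagens and laminins are the structural chains of the kidney's extracellular matrix, and their transcripts were compared in kidneys of mouse pups raised on an iron-deficient or an iron-sufficient diet. Members were taken by a rule on gene names, set with earlier results of these data known. The rule covered every gene of the count tables called Col, a number, a and a number, or Lama, Lamb or Lamc and a number. This took 55 of the 24422 genes: 44 collagen chains and 11 laminin chains. By the assembly that each chain is known for, 11 were fibrillar collagens, 17 were basement membrane chains (6 of type IV collagen and the 11 laminins), and 27 were other collagens.

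Whole kidneys of 6 wild-type C57BL/6 pups at postnatal day 15 were profiled by poly(A) RNA sequencing. The dams of the 3 FeD (iron-deficient) kidneys were fed a diet with 2 to 6 ppm iron, and those of the 3 control kidneys a diet with 220 ppm iron, from before mating through pregnancy and nursing. No kidney carried a transgene or an engineered allele. The libraries held 13732173 to 20853293 counted reads, and members took a mean of 1.04% of the reads in the control group and 0.958% in the FeD group. The labels number the kidneys within each group and name neither litter nor sex, so pups may share a dam, and P values measure the spread between these 6 kidneys.

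Collagens are built from 3 chains wound into a triple helix. Fibrillar collagens, chiefly types I and III in the renal interstitium, are trimmed outside the cell and cross-linked into fibrils by lysyl oxidases. Type IV collagen and laminins do not form fibrils but polymerize into the sheets of the basement membranes that underlie tubules, vessels and the glomerular filter. In the developing glomerulus the type IV network of α1 and α2 chains is joined by one of α3, α4 and α5 chains, and laminin α1 and β1 give way to α5 and β2. Type VI collagen forms beaded microfilaments beside cells, and the fibril-associated (FACIT) collagens coat fibrils.

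Of the 55 members, 50 had enough reads to be tested. The 5 that did not were Col2a1, Col9a1, Col10a1, Col19a1 and Col22a1, of which none exceeded 10.4 normalized counts in any kidney. In the edgeR quasi-likelihood test, with P values adjusted by Benjamini-Hochberg across 15145 genes, 8 members were higher and 20 were lower in FeD kidneys at an adjusted P below 0.05. Among all tested genes, 22.4% were higher and 23.3% lower, together 45.7%. The members' shares were 16% higher and 40% lower. With a change of at least 2-fold as well, 6 members were higher and 10 lower, against 4.34% and 5.69% of all tested genes. Every FeD kidney was above every control in 8 tested members and below in 21, where this held for 28.4% and 29.7% of all tested genes, or 58.1% together. The median log2 fold change of FeD over control was -0.28 over the 50 members and -0.002 over all tested genes.

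**Figure D1:**
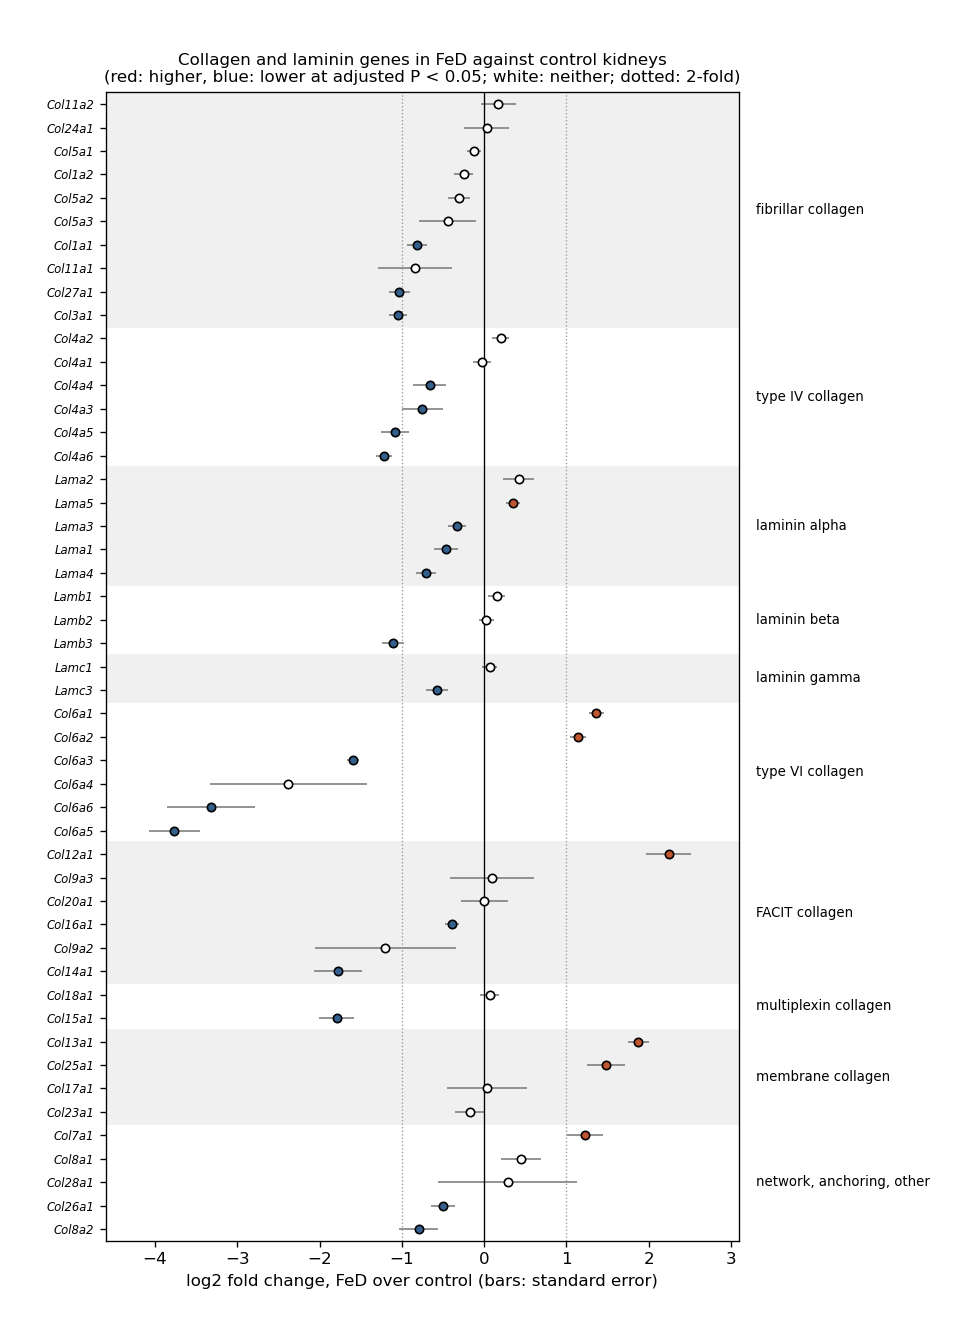
Log2 fold change of FeD over control for 49 of the 50 collagen and laminin genes tested, grouped by the assembly each chain belongs to, with bars for the standard error. Red points passed as higher, blue points as lower and white points as neither at an edgeR adjusted P of 0.05. Apart from Col11a2, Col24a1 and Col4a2, fibrillar and type IV chains lay left of 0, whereas type VI chains lay on both sides, from -3.76 (Col6a5) to 1.36 (Col6a1).

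The fibrillar sum was lower in every FeD kidney, while the basement membrane sum overlapped between the groups. Summed over the 11 fibrillar genes, normalized counts (scaled to a common library size) were 43765, 44355 and 46993 in control kidneys 1 to 3 and 24572, 30934 and 31828 in FeD kidneys 1 to 3. The FeD kidneys were all below the control kidneys, and the means stood 1.55-fold apart. Most of this difference lay in Col3a1 (means of 16690 in control and 8077 in FeD kidneys) and Col1a1 (7752 and 4419). Summed over the 17 basement membrane genes, normalized counts were 107802, 106096 and 117103 in control and 96918, 96097 and 122802 in FeD kidneys. Here FeD kidney 3 was above every control kidney and the other FeD kidneys were below. The largest counts in this sum were those of Col4a1 (means of 26350 in control and 25946 in FeD kidneys) and Col4a2 (21710 and 24967). The fibrillar sum divided by the basement membrane sum was 0.406, 0.418 and 0.401 in control and 0.254, 0.322 and 0.259 in FeD kidneys, with no overlap between the groups. In whole-kidney RNA, fewer cells of a type and less RNA per cell cannot be told apart.

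Counted by gene, 3 of 10 tested fibrillar chains were lower and 0 higher by edgeR, with a median log2 fold change of -0.37. The share called lower, 30%, was near the 23.3% of all tested genes. At an unadjusted P below 0.05 the counts were 3 lower and 0 higher, and DESeq2 also called 3 lower and 0 higher. Of the 17 basement membrane chains, 9 were lower and 2 higher, with a median of -0.33. These are 52.9% and 11.8%, beside 23.3% and 22.4% of all tested genes, and DESeq2 called 6 lower and 2 higher. No fibrillar or basement membrane chain was higher by 2-fold or more. These counts moved with single kidneys, and so did the number of all genes called. Without FeD kidney 3, 5 fibrillar chains were lower, and all genes called numbered 7754, against 6924 with every kidney. Without control kidney 1, FeD kidney 1 or FeD kidney 2, 5 basement membrane chains were lower. All genes called then numbered 5311, 6384 and 6543 in turn. Members are long transcripts, with a median of 6228 bases against 3002 for all tested genes with a known length, and across all genes the median log2 fold change rose from -0.17 to 0.14 between the shortest and the longest of 5 equal length classes. With an offset for length in the fit, 6 fibrillar chains were lower, Col1a2, Col5a1 and Col5a2 being added.

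Among the fibrillar chains, type III collagen showed the lowest adjusted P. Col3a1, the single chain of type III collagen (chr1:45368383-45406551, mm9), had 16615, 16470.0 and 16986 normalized counts in control kidneys and 6839.8, 9078 and 8312 in FeD kidneys. The fitted FeD level was 0.484 of the control level, and the groups were far apart (log2 fold change -1.05 ± 0.11 SE, edgeR adjusted P = 2.1e-04). Col1a1, the chain present in 2 copies in each type I molecule (chr11:94797538-94814356), had 6872, 7799 and 8584 normalized counts in control and 3707, 4689.8 and 4861 in FeD kidneys. All FeD kidneys were again below all controls (log2 fold change -0.81 ± 0.12 SE, edgeR adjusted P = 0.0012). Col1a2, the partner chain of type I collagen (chr6:4454814-4491543), had 12794, 12997 and 13753 in control and 9232, 11484 and 12524 in FeD kidneys. The groups did not overlap for Col1a2 either, but its difference did not pass the test (log2 fold change -0.25 ± 0.11 SE, edgeR adjusted P = 0.1). It passed with the length offset or without FeD kidney 3.

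Because Col1a1 and Col1a2 build the same molecule, their ratio was taken within each kidney, per base of transcript. The Col1a1 to Col1a2 ratio was 0.484, 0.541 and 0.563 in control kidneys and 0.362, 0.368 and 0.350 in FeD kidneys. The log2 ratio averaged -0.92 ± 0.11 (SD, n = 3) among controls and -1.47 ± 0.04 (SD, n = 3) among FeD kidneys, and the two-sided exact permutation test gave p = 0.1. Groups of 3 kidneys cannot give a smaller p than 0.1 in this test, and with Benjamini-Hochberg adjustment over the 6 ratios tested in this way, an exact permutation p of 0.1 became 0.12. The Col3a1 to Col1a1 ratio shifted less, by -0.24 on the log2 scale (exact permutation p = 0.1), with FeD kidneys at 1.82 to 2.06 and control kidneys at 2.11 to 2.58.

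Col27a1, a fibrillar chain best known from cartilage (chr4:62875038-62996025), had 2312, 2362 and 2569 normalized counts in control and 1055, 1019 and 1468 in FeD kidneys. It fell in every FeD kidney (log2 fold change -1.03 ± 0.13 SE, edgeR adjusted P = 6.0e-04). Of 6 cartilage markers, 3 had too few reads to be tested (Acan, Matn1 and Matn3) and the other 3 did not pass, with summed normalized counts of 82.4 to 91.8 in control and 86.98 to 105 in FeD kidneys. The type V chains, which start and limit fibril width, did not pass: Col5a1 stood at a log2 fold change of -0.13, Col5a2 at -0.31 and Col5a3 at -0.44. Col5a1 and Col5a2 passed as lower with the length offset, Col5a2 also without FeD kidney 3, and Col5a3 without FeD kidney 2. The low type XI chains Col11a1 (-0.84) and Col11a2 (0.17) and Col24a1 (0.03) did not pass either. Of 8 markers of fibroblasts and pericytes, 4 were higher and 3 lower, with summed normalized counts of 13092 to 13657 in control and 20166 to 27681 in FeD kidneys. The higher ones were Pdgfra, Pdgfrb, Mcam and Rgs5, the lower ones were Cspg4, Postn and Lum, and Thy1 did not pass. Rgs5, a pericyte gene, had the smallest P among the higher ones (log2 fold change 1.73). Without Rgs5 the other 7 markers summed to 9902 to 10197 in control and 10722 to 15037 in FeD kidneys, so most of the difference in the sum lay in that gene. The part of these cells in the collagen differences was not tested.

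The promoters of 6 chains are shown. Col4a1 and Col4a2 start head to head, Col4a4 belongs to the type IV network whose chains were lower, Col6a1 and Col6a3 build one molecule but moved in opposite directions, and Col3a1 had the lowest adjusted P of the fibrillar chains. Sequences are the 250 bases before the transcript start, 5′ to 3′ on the gene's strand, from RefSeq (GRCm38.p6), and positions come from an exact match to the mm9 genome. The RefSeq start differs from the mm9 gene start for Col6a1, where 124 bases of the window lie inside the mm9 gene, and for Col6a3, where 19 bases separate them. By the mm9 positions, the Col4a1 window lies inside the Col4a2 gene and the Col4a2 window inside the Col4a1 gene. Part of the Col4a4 window lies inside the Col4a3 gene. Capitals mark matches on either strand to 4 motifs, which can overlap. The GC box was searched with the letters GGGCGG. The CCAAT box was searched under the letters of its name. For the TATA box the letters were TATAAA. The core of a hypoxia response element was searched with the letters ACGTG and, as an alternative core, with the letters GCGTG.
Col4a1 (chr8:11312827-11313076, minus strand): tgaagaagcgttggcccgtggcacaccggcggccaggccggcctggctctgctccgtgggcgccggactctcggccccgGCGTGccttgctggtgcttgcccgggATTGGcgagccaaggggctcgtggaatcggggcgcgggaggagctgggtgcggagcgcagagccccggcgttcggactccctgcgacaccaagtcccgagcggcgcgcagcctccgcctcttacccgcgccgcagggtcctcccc
Col4a2 (chr8:11312555-11312804, plus strand): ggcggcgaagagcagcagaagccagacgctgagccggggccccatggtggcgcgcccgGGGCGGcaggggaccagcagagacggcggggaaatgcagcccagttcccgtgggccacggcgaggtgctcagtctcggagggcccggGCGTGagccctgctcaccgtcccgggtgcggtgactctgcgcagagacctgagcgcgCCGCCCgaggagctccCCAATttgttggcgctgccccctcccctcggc
Col4a4 (chr1:82583425-82583674, minus strand): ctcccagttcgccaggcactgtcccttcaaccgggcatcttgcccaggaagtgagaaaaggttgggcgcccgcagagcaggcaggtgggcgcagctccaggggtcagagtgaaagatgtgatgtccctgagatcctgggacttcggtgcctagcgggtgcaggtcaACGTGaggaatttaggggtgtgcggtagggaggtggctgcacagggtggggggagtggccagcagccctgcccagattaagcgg
Col3a1 (chr1:45368133-45368382, plus strand): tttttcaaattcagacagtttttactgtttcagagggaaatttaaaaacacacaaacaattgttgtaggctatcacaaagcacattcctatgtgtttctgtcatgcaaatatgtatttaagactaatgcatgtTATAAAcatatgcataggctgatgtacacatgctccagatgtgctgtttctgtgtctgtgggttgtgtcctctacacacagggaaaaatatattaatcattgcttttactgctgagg
Col6a1 (chr10:76188790-76189039, minus strand): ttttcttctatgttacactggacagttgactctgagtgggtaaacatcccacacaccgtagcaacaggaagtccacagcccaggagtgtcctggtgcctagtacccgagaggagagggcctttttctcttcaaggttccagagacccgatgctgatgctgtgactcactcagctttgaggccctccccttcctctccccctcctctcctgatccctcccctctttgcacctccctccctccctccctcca
Col6a3 (chr1:92740549-92740798, minus strand): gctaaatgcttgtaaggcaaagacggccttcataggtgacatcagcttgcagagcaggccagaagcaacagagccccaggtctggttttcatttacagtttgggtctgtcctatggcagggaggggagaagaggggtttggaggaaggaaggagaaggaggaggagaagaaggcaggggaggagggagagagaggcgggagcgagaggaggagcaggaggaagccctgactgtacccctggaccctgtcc
The Col4a1 and Col4a2 windows face each other across a shared start region and both held a CCAAT box and a GCGTG core, and Col4a2 also held 2 GC boxes. Col4a4 held an ACGTG core, Col3a1 held a TATAAA, and Col6a1 and Col6a3 held none of the 4 motifs in this window. The TATAAA of Col3a1 begins 117 bases before the transcript start, and whether it acts as a TATA box was not tested.

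Windows were found for 40 of the 55 members. Those without one included Col12a1, Col14a1, Col1a1, Col22a1, Col26a1, Col2a1, Col4a3, Col5a2, Col9a3, Lama1, Lama3, Lama4, Lamc1 and Lamc3. A GC box stood in 57.5% of the 40 member windows and in 35.4% of the windows of all 27025 genes in the RefSeq table. The CCAAT box stood in 35.0% against 37.5%, the TATA box in 12.5% against 14.3%, and the hypoxia core in 32.5% against 41.5%. Among members with a window, the hypoxia core was in 4 of 12 called lower, 2 of 6 called higher and 7 of 19 tested but not called.

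The 6 type IV chains separated by network. Col4a1 and Col4a2, which build the network found in all basement membranes, did not pass the test, whereas the 4 chains of the α3-α4-α5 and α5-α6 networks were lower in FeD kidneys by edgeR. DESeq2 called Col4a5 and Col4a6 but not Col4a3 (adjusted P = 0.091) or Col4a4 (adjusted P = 0.052). Col4a1 (chr8:11198423-11312826, minus strand) had 25386, 26012 and 27652 normalized counts in control and 23054, 24695 and 30088 in FeD kidneys. Its FeD values lay below the controls in kidneys 1 and 2 and above them in kidney 3 (log2 fold change -0.02 ± 0.11 SE, edgeR adjusted P = 0.89). Col4a2, on the other strand with 20 bases between the starts (chr8:11312805-11449287), had 20458, 21467 and 23204 in control and 23034, 23380.1 and 28486 in FeD kidneys. FeD kidney 3 was above all controls, FeD kidney 2 just above them and FeD kidney 1 inside their range (log2 fold change 0.20 ± 0.11 SE, edgeR adjusted P = 0.15). The 5′ ends of both genes overlap in the mm9 annotation over 22 bases, so reads there could be counted for either.

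Col4a3, mutated in Alport syndrome of the glomerular filter (chr1:82583496-82718634), had 11213, 10306 and 12217 normalized counts in control and 5574, 4603 and 9854 in FeD kidneys. FeD kidney 3 was close under the lowest control and the other FeD kidneys were below 0.5 of the control mean (log2 fold change -0.75 ± 0.25 SE, edgeR adjusted P = 0.038). Col4a4, its head-to-head neighbour with 71 bases between the starts (chr1:82447298-82583424), had 9439, 8515 and 10051 in control and 5150.1, 4483 and 8043 in FeD kidneys. It showed the same order of kidneys, with FeD kidney 3 near the controls (log2 fold change -0.66 ± 0.20 SE, edgeR adjusted P = 0.025). The call of Col4a3 was lost without any one of control kidneys 1 to 3 and FeD kidneys 1 and 2, and that of Col4a4 without control kidney 1 or 3 or FeD kidney 1 or 2. Over all alternatives their edgeR adjusted P values reached 0.16 and 0.13.

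Col4a5, the X-linked chain of the same network (chrX:137909928-138123778), had 6767, 5903 and 6752 normalized counts in control and 2526, 2644 and 4002 in FeD kidneys. No FeD kidney reached the controls (log2 fold change -1.08 ± 0.17 SE, edgeR adjusted P = 0.0014). Col4a6, which lies head to head with Col4a5 across 1308 bases (chrX:137599946-137908619) and is a chain of Bowman's capsule and some tubular basement membranes, had 754, 709 and 850.5 in control and 317, 314 and 362 in FeD kidneys. It had the smallest adjusted P of the type IV chains (log2 fold change -1.22 ± 0.10 SE, edgeR adjusted P = 8.7e-05). Control kidneys 1 and 2 and FeD kidney 3 had high Xist, the transcript of the inactive X chromosome, and the other 3 kidneys had Y-linked transcripts. With that split as a covariate, the log2 fold change was -1.02 for Col4a5 and -1.22 for Col4a6.

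**Figure D2:**
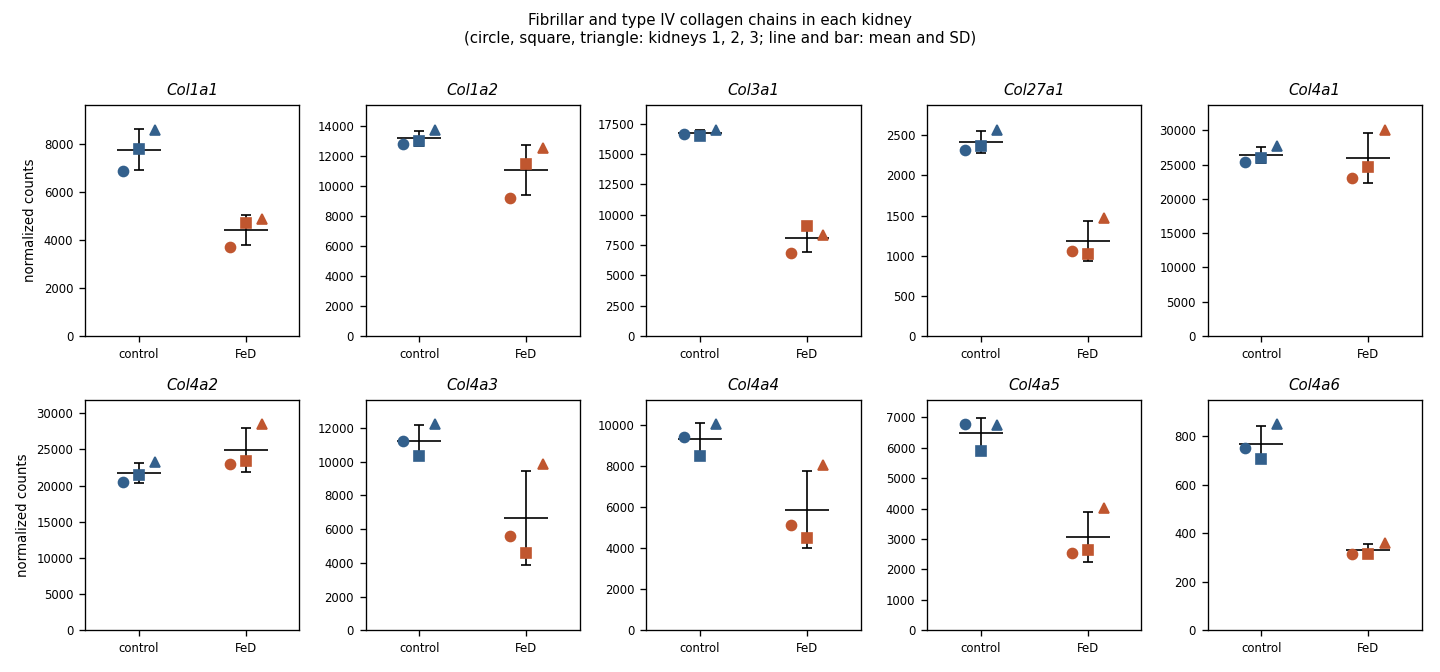
Normalized counts of fibrillar and type IV collagen chains in each kidney, with circle, square and triangle for kidneys 1, 2 and 3 of a group, and a line and bar for the mean and SD. Col1a1, Col1a2, Col3a1, Col27a1, Col4a3, Col4a4, Col4a5 and Col4a6 sit in separate ranges in the groups, whereas for Col4a1 and Col4a2 the ranges overlap and FeD kidney 3 is highest.

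The balance of the type IV networks was measured within each kidney as Col4a1 plus Col4a2 over Col4a3, Col4a4 and Col4a5, per base of transcript. This ratio was 1.97, 2.27 and 2.08 in control kidneys and 4.16, 4.85 and 3.21 in FeD kidneys. The FeD kidneys were all above the controls by a mean of 0.93 on the log2 scale, the two-sided exact permutation p was 0.1, and the difference stayed between 0.80 and 1.10 when single kidneys were left out. Col4a1 over Col4a2 itself was 1.16 to 1.21 in control and 0.976 to 1.03 in FeD kidneys (exact permutation p = 0.1). Podocytes make the α3-α4-α5 network of the glomerular filter. Of 6 podocyte markers, 1 was higher (Wt1) and the others did not pass. Their summed normalized counts were 13983 to 15190 in control and 11304 to 16016 in FeD kidneys. The part of podocytes or of other cells in the type IV differences was not tested.

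Among the laminins, 2 of the 11 chains were higher and 5 lower by edgeR, or 18.2% and 45.5% beside 22.4% and 23.3% of all tested genes, and the most abundant β and γ chains did not pass. The α chains, which bind cell receptors, moved in both directions. Lama5, the α chain of the mature glomerular and tubular basement membrane (chr2:179911078-179960564), had 7701, 7692 and 8820.2 normalized counts in control and 11164, 9939 and 9799 in FeD kidneys. All FeD kidneys were above all controls (log2 fold change 0.35 ± 0.09 SE, edgeR adjusted P = 0.012). Lama1, the α chain of early nephrons (chr17:68046605-68171985), had 1227, 1152 and 1309.6 in control and 873, 698 and 1096 in FeD kidneys. Its FeD kidneys were all lower, FeD kidney 3 by little (log2 fold change -0.46 ± 0.15 SE, edgeR adjusted P = 0.032). The Lama5 call was lost without control kidney 1 or 2 or with the length offset, and the Lama1 call without any one kidney other than FeD kidney 3. Over all alternatives their edgeR adjusted P values reached 0.22 and 0.13.

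The Lama1 to Lama5 ratio, per base of transcript, was 0.191, 0.179 and 0.178 in control kidneys and 0.0935, 0.0841 and 0.134 in FeD kidneys. It was lower in all 3 FeD kidneys, by a mean of -0.84 on the log2 scale (two-sided exact permutation p = 0.1). Lamb1 over Lamb2 was 2.34 to 2.47 in control and 2.45 to 2.72 in FeD kidneys, with overlap between the groups (exact permutation p = 0.2). Lama4, an α chain of vessel basement membranes (chr10:38685321-38829994), had 984, 907 and 884 normalized counts in control and 478, 564 and 659.5 in FeD kidneys. It was lower in each FeD kidney (log2 fold change -0.71 ± 0.12 SE, edgeR adjusted P = 0.0021), and 5 of 7 endothelial markers were also lower, with summed counts of 17410.0 to 17883 in control and 12292 to 15034 in FeD kidneys. The part of endothelial RNA in the Lama4 difference was not tested. Lama3 passed at a log2 fold change of -0.33 but lost its call without control kidney 1 or 2 or FeD kidney 1 or 2, and with DESeq2 or the sex covariate. Lama2, the α chain of muscle and mesenchyme, did not pass (log2 fold change 0.42 ± 0.19 SE, edgeR adjusted P = 0.1) but was called higher without FeD kidney 1 or with the sex covariate.

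The β and γ chains that join most laminin trimers did not pass the test. Lamb1 (chr12:31950099-32014509) had 9420.1, 9265 and 9952 normalized counts in control and 9970.2, 9630.2 and 12192 in FeD kidneys (log2 fold change 0.15 ± 0.10 SE, edgeR adjusted P = 0.25). Lamb2 (chr9:108382193-108392861) had 3712, 3769 and 4139.7 in control and 3957, 3542 and 4352 in FeD kidneys (log2 fold change 0.03 ± 0.09 SE, edgeR adjusted P = 0.81). Lamc1 (chr1:155066052-155179916), the γ chain of nearly all laminins, had 6431, 6357 and 6867 in control and 6232, 6556 and 7799.8 in FeD kidneys (log2 fold change 0.07 ± 0.09 SE, edgeR adjusted P = 0.59). For all 3 chains the groups overlapped and FeD kidney 3 was the highest of the 6.

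Lamb3, a β chain of epithelial laminin (chr1:195128151-195170072), had 335, 342 and 429 normalized counts in control and 185, 177 and 153 in FeD kidneys. All its FeD values were below all control values (log2 fold change -1.11 ± 0.14 SE, edgeR adjusted P = 4.7e-04). Of 5 markers of urothelium, the lining of the renal pelvis, 3 were also lower (Upk2, Upk3a and Krt5), with summed counts of 999 to 1374 in control and 712 to 953 in FeD kidneys, and their part in the Lamb3 difference was not tested. Lamc3, a γ chain with a limited distribution, was lower (log2 fold change -0.57 ± 0.14 SE, edgeR adjusted P = 0.0097), and 6.27% of its exon bases overlap an opposite-strand gene.

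**Figure D3:**
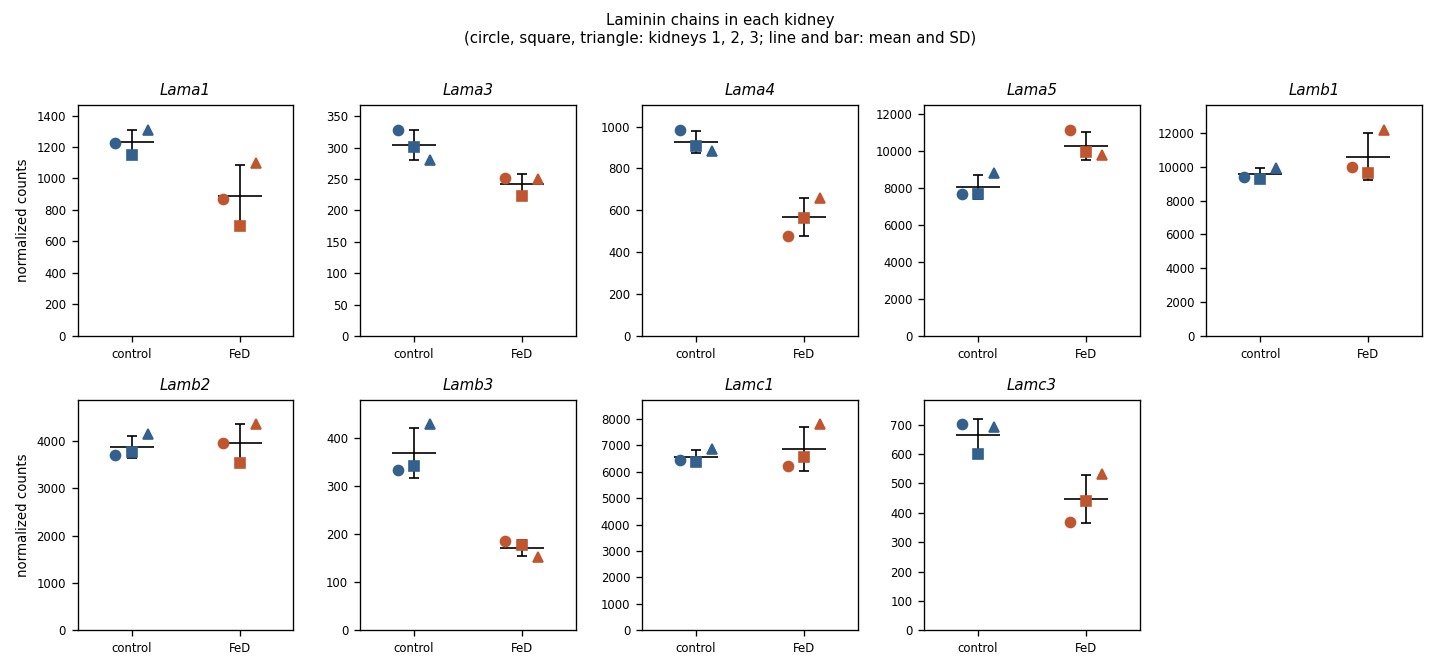
Normalized counts of 9 laminin chains in each kidney, with circle, square and triangle for kidneys 1, 2 and 3 of a group, and a line and bar for the mean and SD. Lama5 is higher and Lama1, Lama3, Lama4, Lamb3 and Lamc3 lower in every FeD kidney, and Lamb1, Lamb2 and Lamc1 overlap between the groups.

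Chains of type VI collagen, known to build one molecule, moved in opposite directions. Col6a1 (chr10:76171537-76188913) had 3621, 3516 and 3342 normalized counts in control and 8356, 8482 and 10109 in FeD kidneys. Col6a2, which lies on the same strand with 85161 bases between the genes (chr10:76058507-76086375), had 2266, 2226 and 2238 in control and 4719, 4408 and 5738 in FeD kidneys. Col6a1 rose in every FeD kidney (log2 fold change 1.36 ± 0.09 SE, edgeR adjusted P = 3.7e-05), and so did Col6a2 (log2 fold change 1.14 ± 0.10 SE, edgeR adjusted P = 1.0e-04). Col6a3, the partner chain of the classical α1-α2-α3 molecule and encoded on another chromosome (chr1:92663435-92740529), had 2795, 2745 and 2779 in control and 831, 946 and 973 in FeD kidneys. It fell in every FeD kidney with a narrow spread (log2 fold change -1.60 ± 0.07 SE, edgeR adjusted P = 8.9e-06), the smallest adjusted P of the 50 members.

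The Col6a1 to Col6a3 ratio per base, a pair chosen after its values were seen and given without a test, was 2.57 to 2.77 in control and 19.2 to 22.2 in FeD kidneys. Col6a1 over Col6a2, chosen in the same way, was 1.70 to 1.81 and 2.00 to 2.18. Of the chains that can stand in for α3, Col6a5 and Col6a6 were scarce and lower. Col6a5 (chr9:105758400-105862974) had 122, 209 and 125 normalized counts in control and 9.998, 14.3 and 9.49 in FeD kidneys (log2 fold change -3.76 ± 0.31 SE, edgeR adjusted P = 8.8e-05). Col6a6 (chr9:105591747-105730415) had 73.8, 44.2 and 32.0 in control and 4.999, 9.09 and 1.73 in FeD kidneys (log2 fold change -3.32 ± 0.54 SE, edgeR adjusted P = 0.0017). In both genes the lowest control kidney was several-fold above the highest FeD kidney, and 2.41% of the 100-base windows of Col6a5 and 2.97% of those of Col6a6 also occur in another gene. Col6a4 was high in control kidney 1 alone, at 177 normalized counts against 8.998 to 20.5 in the other 5 kidneys, and did not pass (log2 fold change -2.38 ± 0.95 SE, edgeR adjusted P = 0.072), although DESeq2 called it lower, as did edgeR without control kidney 2.

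Among the FACIT collagens, Col12a1 and Col14a1, close relatives that bind the surface of type I fibrils, moved in opposite directions. Col12a1 (chr9:79446798-79566638) had 960.5, 1033 and 1149 normalized counts in control and 3465, 3837 and 7548 in FeD kidneys. FeD kidney 3 was the highest by far, and the lowest FeD kidney was still above 3 times the highest control (log2 fold change 2.24 ± 0.28 SE, edgeR adjusted P = 5.0e-04). Col14a1 (chr15:55139305-55352358) had 2062, 2612 and 2218 in control and 705, 959.5 and 367 in FeD kidneys. FeD kidney 3 was here the lowest (log2 fold change -1.78 ± 0.29 SE, edgeR adjusted P = 0.0017). Col16a1 was lower by less (log2 fold change -0.39 ± 0.09 SE, edgeR adjusted P = 0.0074), and Col9a2 (-1.20), Col9a3 (0.10) and Col20a1 (0.002) did not pass. Control kidney 1 had 112 Col9a2 normalized counts, against 11.1 to 29.9 in the other kidneys.

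The basement membrane zone collagens XV and XVIII, whose ends release small inhibitory fragments, also parted. Col15a1, found in the basement membranes of capillaries and muscle (chr4:47221033-47326039), had 3786, 3787 and 3876 normalized counts in control and 885, 848 and 1563 in FeD kidneys. It fell in every FeD kidney (log2 fold change -1.79 ± 0.21 SE, edgeR adjusted P = 3.9e-04), beside the endothelial and smooth muscle markers (4 of 6 lower, 1 higher), whose part was not tested. Col18a1, which carries heparan sulfate and is a main collagen of tubular basement membranes, averaged 10910.3 ± 809 (SD, n = 3) normalized counts among controls and 11417 ± 1681 (SD, n = 3) among FeD kidneys and did not pass (log2 fold change 0.07 ± 0.12 SE, edgeR adjusted P = 0.67).

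Over all 23 tested other collagens, 6 were higher and 8 lower, or 26.1% and 34.8%, beside 22.4% and 23.3% of all tested genes. Of the remaining collagens, 3 were higher by 2-fold or more, where 4.34% of all tested genes were. These were 2 of 4 tested membrane collagens and 1 of 5 tested network, anchoring and other collagens. Col13a1, a transmembrane collagen (chr10:61300984-61441856), had 103, 106 and 108 normalized counts in control and 336, 434 and 394 in FeD kidneys (log2 fold change 1.87 ± 0.13 SE, edgeR adjusted P = 3.9e-05). Col25a1, another transmembrane collagen (chr3:129883809-130302795), had 17.2, 21.0 and 19.6 in control and 49.0, 62.3 and 50.9 in FeD kidneys (log2 fold change 1.48 ± 0.23 SE, edgeR adjusted P = 0.0015). Col7a1, the anchoring fibril collagen of epithelia (chr9:108855631-108886920), had 698, 652 and 811 in control and 1332, 1339.9 and 2364 in FeD kidneys (log2 fold change 1.22 ± 0.22 SE, edgeR adjusted P = 0.0027). In all 3 genes every FeD kidney exceeded every control, as in 28.4% of all tested genes. Col8a2 (-0.80) and Col26a1 (-0.50) were lower. The Col8a2 call was lost without control kidney 2 or 3 or FeD kidney 1 or 2, and the Col26a1 call without control kidney 1 or 2. Col8a1 (0.45), Col17a1 (0.04), Col23a1 (-0.18) and Col28a1 (0.29) did not pass.

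**Figure D4:**
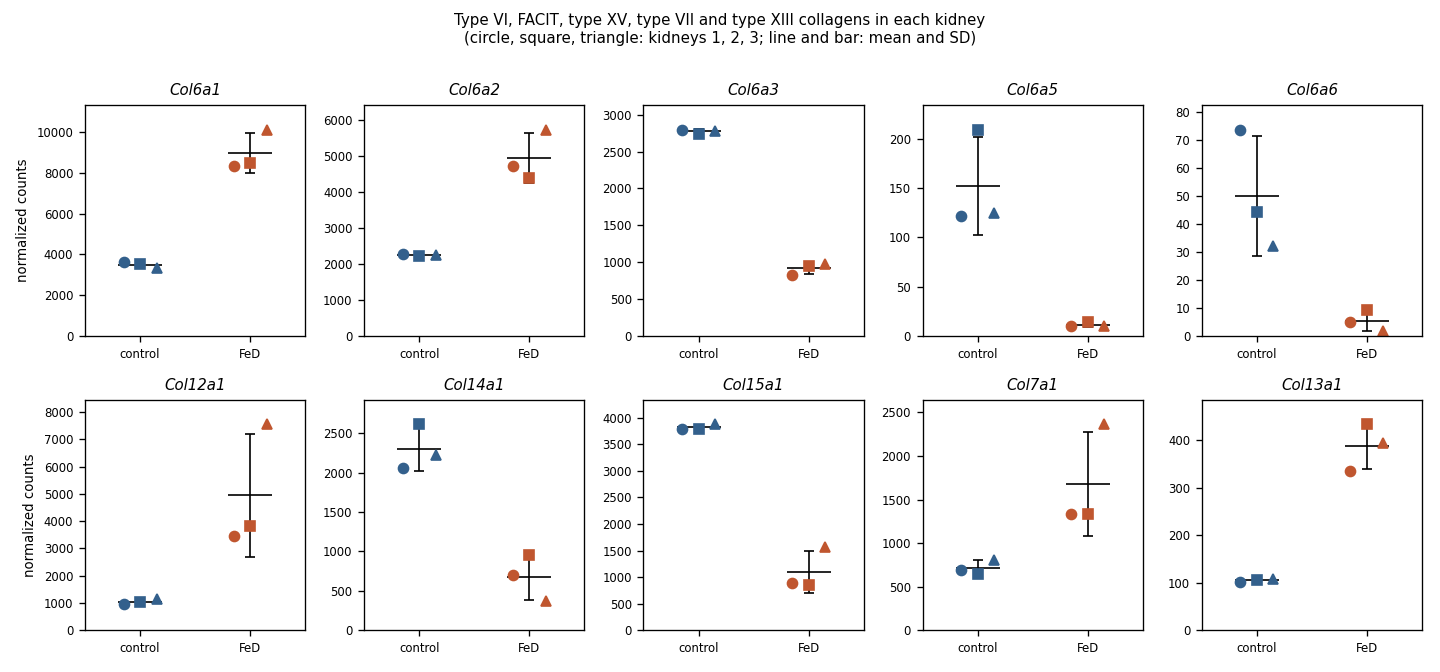
Normalized counts of type VI, FACIT, type XV, type VII and type XIII collagens in each kidney, with circle, square and triangle for kidneys 1, 2 and 3 of a group, and a line and bar for the mean and SD. Col6a1 and Col6a2 rise while Col6a3, Col6a5 and Col6a6 fall, and Col12a1 rises while Col14a1 falls.

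Per base of transcript, Col4a1 was the most abundant member in both groups, at 223 ± 9.91 RPKM (reads per kilobase of transcript and per unit of sequencing depth, SD, n = 3) among controls and 219.6 ± 31.2 among FeD kidneys. In control kidneys it was followed by Col4a2 (188.5 ± 12.1), Col3a1 (168 ± 2.68) and Col1a2 (138 ± 5.29). In FeD kidneys Col4a2 (217 ± 26.5) overlapped with Col4a1, and Col6a1 (123 ± 13.4) and Col1a2 (116 ± 17.6), whose ranges overlapped, came ahead of Col3a1 (81.3 ± 11.5). By their means, Lamb1 (103 ± 13.5) and Col18a1 (101 ± 14.9) stood between Col1a2 and Col3a1. Col6a1 had stood at 47.7 ± 1.92 RPKM in control kidneys, below Col4a3 (73.6 ± 6.26), Col1a1 (73.2 ± 8.09) and Col4a4 (66.95 ± 5.55). Col18a1 (96.4 ± 7.14), Lamb1 (92.4 ± 3.49) and Col4a5 (55.5 ± 4.24) were among the other members above it there.

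**Figure D5:**
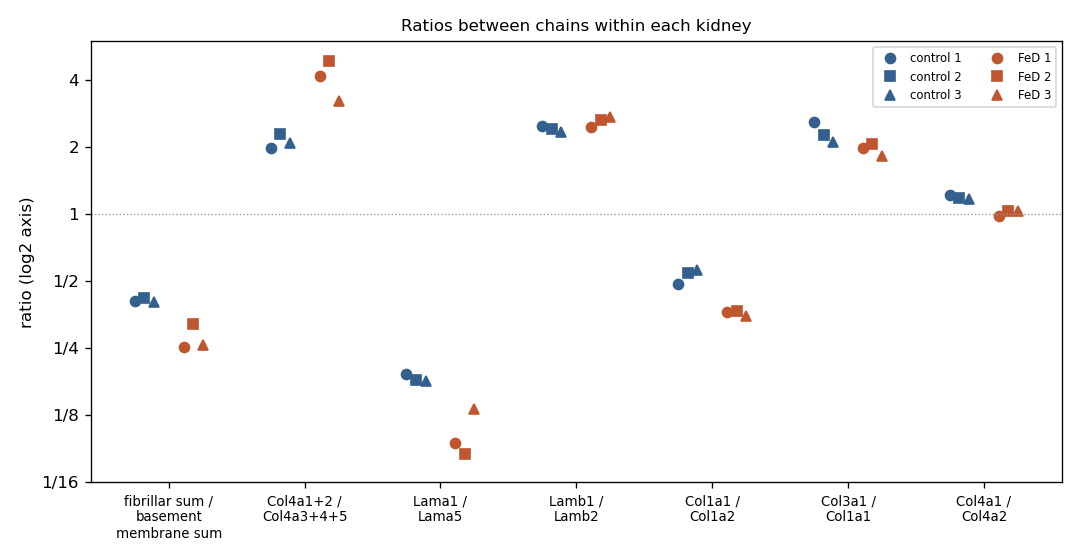
Ratios between chains within each kidney on a log2 axis. The first is the fibrillar sum over the basement membrane sum of normalized counts, and the other 6 are ratios of counts per base of transcript. The 3 FeD kidneys lie apart from the 3 control kidneys in every ratio except Lamb1 over Lamb2.

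The FeD kidneys differed among themselves. FeD kidney 3 was the highest FeD kidney in 13 of the 20 members called lower and in 5 of the 8 called higher, that is in 65% and 62.5%, where it was so in 34.7% and 39.1% of all genes called lower and higher. It was also the only FeD kidney with high Xist, and the part of sex in this order was not tested. FeD kidney 2 held adrenal transcripts, with a summed 10821 normalized counts over 6 adrenal markers against 137 to 416 in the other kidneys. With this kidney and control kidney 1, which had the next highest sum, both left out, 7 members were higher and 14 lower, and basement membrane chains called lower numbered 4. Col16a1 and Lamc3 were among the calls lost. All genes called in that fit numbered 4676, against 6924 with every kidney, and the cause of the lost calls was not tested.

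Enzymes that fold, trim and cross-link the chains were called in both directions. Of 19 tested genes for folding and modification, 6 were higher and 4 lower, or 31.6% and 21.1%, beside 22.4% and 23.3% of all tested genes. Serpinh1, the collagen chaperone HSP47, had 6083, 6198 and 6524 normalized counts in control and 2728, 2423 and 4092 in FeD kidneys (log2 fold change -1.02 ± 0.17 SE, edgeR adjusted P = 0.0021), each FeD kidney being below each control. P3h2, a prolyl 3-hydroxylase that acts on type IV collagen, fell as well (log2 fold change -0.84 ± 0.13 SE, edgeR adjusted P = 0.0012), whereas Mia3, which loads procollagen into secretory carriers, rose (log2 fold change 0.42 ± 0.06 SE, edgeR adjusted P = 0.001), as did Fkbp14 (log2 fold change 0.56 ± 0.09 SE, edgeR adjusted P = 0.0014). The catalytic subunits of prolyl 4-hydroxylase, an iron-dependent enzyme, did not pass, with P4ha1 at -0.04 and P4ha2 at 0.37.

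Of 14 tested genes for processing and cross-linking, 3 were higher and 6 lower, or 21.4% and 42.9%, beside 22.4% and 23.3% of all tested genes. Lox, the lysyl oxidase that cross-links fibrils, had 1227, 1318 and 1414 normalized counts in control and 4657, 5954 and 9278 in FeD kidneys. Its lowest FeD value was above 3 times the highest control (log2 fold change 2.33 ± 0.23 SE, edgeR adjusted P = 1.7e-04). The related Loxl1 rose (log2 fold change 1.02 ± 0.09 SE, edgeR adjusted P = 9.4e-05) and Loxl4 fell (log2 fold change -2.18 ± 0.15 SE, edgeR adjusted P = 3.9e-05). Pcolce, the enhancer that speeds removal of the C-propeptide of fibrillar procollagen, fell (log2 fold change -0.85 ± 0.09 SE, edgeR adjusted P = 1.9e-04), as did Pcolce2 (log2 fold change -1.24) and Tll1 (-1.42), a propeptide protease. Adamts3, an N-propeptide protease, rose (1.05).

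Of 18 genes for matrix that coats or accompanies fibrils, 4 were higher and 8 lower. These are 22.2% and 44.4%, beside 22.4% and 23.3% of all tested genes. Ctgf, a secreted growth factor binding matrix, had 1932, 2146 and 2206 normalized counts in control and 10174, 9039 and 8842 in FeD kidneys (log2 fold change 2.16 ± 0.09 SE, edgeR adjusted P = 8.7e-06), and Thbs2 also rose (1.20). Fmod, a proteoglycan that binds type I fibrils, fell from 464, 506 and 476 to 130.0, 144 and 133 (log2 fold change -1.83 ± 0.10 SE, edgeR adjusted P = 1.5e-05). Vcan (-2.80), Lum (-2.31), Postn (-1.40), Tnc (-1.32) and Tnxb (-1.17) were lower by 2-fold or more as well. Dcn, a more abundant proteoglycan, rose from a mean of 1787 in control to 3167 in FeD kidneys (log2 fold change 0.83 ± 0.18 SE, edgeR adjusted P = 0.0061). Bgn (-0.09), Ogn (-0.39) and Aspn (0.88) did not pass.

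Of 16 basement membrane partners, 3 were higher and 5 lower, or 18.8% and 31.2%, beside 22.4% and 23.3% of all tested genes. Tinag, a tubular basement membrane protein that binds type IV collagen and laminin, had 1699, 1859.6 and 1607 normalized counts in control and 755, 806 and 761 in FeD kidneys (log2 fold change -1.15 ± 0.07 SE, edgeR adjusted P = 3.3e-05). Nid2, a linker between laminin and type IV collagen, fell (log2 fold change -0.99 ± 0.09 SE, edgeR adjusted P = 1.1e-04), while its relative Nid1 rose (log2 fold change 0.40 ± 0.10 SE, edgeR adjusted P = 0.014). Egfl6 rose (log2 fold change 1.04 ± 0.08 SE, edgeR adjusted P = 6.3e-05). Of the 5 proximal tubule markers, all were lower, with summed counts of 122829 to 131151 in control and 49216 to 53096 in FeD kidneys. Most of the difference in the sum lay in Slc34a1, with means of 71821 in control and 15383 in FeD kidneys. The log2 fold change was -4.89 for Slc5a2, but -0.48, -0.45 and -0.45 for Lrp2, Cubn and Aqp1. The part of proximal tubule RNA in the Tinag difference was not tested. Of 14 tested receptors for collagens and laminins, 1 was higher, Itga11 (log2 fold change 1.63 ± 0.31 SE, edgeR adjusted P = 0.0038), and 1 lower, Itga6 (log2 fold change -0.55 ± 0.07 SE, edgeR adjusted P = 7.2e-04). Next by P was Itga3, an integrin chain of podocytes and tubules, which did not pass (-0.32). The receptors' shares were thus 7.14% higher and 7.14% lower, below the 22.4% and 23.3% of all tested genes.

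Of 22 tested proteases and inhibitors that turn matrix over, 7 were higher and 8 lower. These are 31.8% and 36.4%, beside 22.4% and 23.3% of all tested genes. Adamts4 (log2 fold change 2.30 ± 0.16 SE, edgeR adjusted P = 4.4e-05), Mmp14, a membrane-bound collagenase (log2 fold change 1.00 ± 0.07 SE, edgeR adjusted P = 5.0e-05), and Adamts1 (log2 fold change 1.60 ± 0.12 SE, edgeR adjusted P = 5.2e-05) rose by 2-fold or more. Mmp9 (-2.004), Mmp13 (-1.69) and Htra1 (-1.27) fell by 2-fold or more. Over the 6 lists, 24 of 103 tested genes were higher and 32 lower, or 23.3% and 31.1%. Together this was 54.4%, beside 45.7% of all tested genes.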

How the data were processed

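Per the labels and the study's methods, total RNA of whole kidneys (3 control, 3 FeD) was poly(A)-selected and sequenced as single-end 100-base reads. The authors processed the reads with CASAVA 1.8.2, trimmed them with Trimmomatic, aligned them to mm9 with TopHat2 2.0.11 and deposited raw HTSeq counts per gene symbol. The gene annotation, the counting mode and the strand setting are not given in the sources used here. Control and FeD columns came as separate tables and were joined by symbol.

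Counts were tested with edgeR 4.0.16 (R 4.3.3): TMM scaling, its default filter on low counts (15145 of 24422 genes kept), the quasi-likelihood F test without covariates and Benjamini-Hochberg adjustment over all tested genes, with a threshold of 0.05. Adjusted P values quoted are from this edgeR test unless DESeq2 is named. DESeq2 1.42.0 was an alternative. The scripts were tested on simulated data. Normalized counts are scaled to the mean library. RPKM and chain ratios used the longest protein-coding transcript of GENCODE M1, an mm9 annotation that also gave gene positions. Ratios were compared by two-sided exact permutation tests over 6 ratios. Deviations from the group means correlated at -0.16, 0.000096 and -0.03 between same-numbered kidneys, which come from different pups, so numbers were not used as pairs.

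Members, classes and gene lists were chosen with earlier results of these data known. Every tested member was given by its log2 fold change, and every kidney's value for types I, III and IV, Lama1, Lama5, Lamb1, Lamb2, Lamc1, each member called with a 2-fold change and the member of lowest P in each class. Of each other list, the 3 genes of lowest P and all called with a 2-fold change were named. P4ha1, P4ha2, Pcolce, Nid1, Dcn, Bgn, Ogn and Aspn were added after their values were seen. The results of 2 genes that these rules name are not reported here, and counts include them.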

Additional observations from a re-analysis of the deposited data

How the results depend on the processing

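Apart from the test against a fold change of 2, 19 of the 28 members called kept the call and its sign under every alternative fit that gave them a value, 9 lost it under at least 1 and none of the 28 changed sign. DESeq2 called 6 basement membrane chains lower against 9. The replicate block gave 8 members higher and 19 lower, with 6444 genes called in all against 6924, and since the numbers do not pair the pups it is given here only (Lama3 lost its call). The sex term and the fits without both control kidney 1 and FeD kidney 2 were chosen after seeing the data. Tested against a fold change of 2, 3 members were higher and 4 lower, and 511 of all 15145 tested genes were called. With the length offset, alone or with the replicate block, 6 fibrillar chains were lower and 1 basement membrane chain higher. The fibrillar median was then -0.496 and -0.562, and the basement membrane median -0.478 and -0.480. Without control kidney 1 and FeD kidney 2, 1 basement membrane chain was higher and 4 lower, with a median of -0.208. In that fit 4676 genes were called in all. Leaving out single kidneys gave 3 to 5 fibrillar chains lower (median -0.547 to -0.223), and 1 to 3 basement membrane chains higher and 5 to 9 lower. In these fits 5019 to 7754 genes were called in all. The cause was not tested.

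Of the 22 members not called, 6 (Col1a2, Col5a1, Col5a2, Col5a3, Col6a4 and Lama2) gained a call and 10 changed sign in some fit. With the length offset, alone and then with the block, Col17a1 was at -0.070 and -0.067, Col18a1 at -0.055 and -0.062, Col20a1 at -0.037 and -0.091, Col24a1 at -0.104 and -0.068, Lamb2 at -0.076 and -0.078, and Lamc1 at -0.081 and -0.082. With the block alone Col20a1 was at -0.049 and Col28a1 at -0.134, and Col28a1 at -0.176 with block and offset. With the sex term Col4a1 was at 0.008, Col20a1 at -0.255, Col28a1 at -0.229 and Col9a3 at -0.218. Without control kidney 1 and FeD kidney 2, Col20a1 was at -0.325, Col28a1 at -1.694, Col9a2 at 0.383 and Col9a3 at -0.474. With no filter on low counts, Col20a1 was at -0.005. Over single kidneys left out, Col17a1 ranged from -0.462 to 0.543, Col18a1 from -0.018 to 0.198, Col20a1 from -0.216 to 0.30, Col24a1 from -0.162 to 0.314, Col28a1 from -1.548 to 0.851, Col4a1 from -0.131 to 0.074, Col9a2 from -1.647 to 0.736, Col9a3 from -0.486 to 0.535, Lamb2 from -0.034 to 0.122 and Lamc1 from -0.024 to 0.150.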
